A study of Mus musculus with 12 samples.

Results

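Krt79 keratinocytes are a small population of epidermal cells that carry the keratin gene Krt79 together with the defensin gene Defb6 or the cystatin gene Cst6. In single-cell RNA-seq of the mouse hind paw epidermis, 1635 of 125515 kept cells (1.30%) were chosen by the UMI counts below, with 97 to 183 cells per mouse (median 139.5, n = 12 mice). A kept cell had 500 to 6000 detected genes and at most 5% mitochondrial UMIs, where a UMI is a molecular tag that counts 1 captured transcript. A Krt79 keratinocyte had at least 3 UMIs of Krt79 and at least 1 UMI of Defb6 and Cst6 together. Cells of other kinds were excluded by 5 limits. Genes whose names start with Lce1 (cornified cells) had to make up under 0.5% of the UMIs, and Krt9 (volar keratinocytes) had to be under 3 UMIs. The sum of the S-phase genes Hist1h1b, Hist1h1a, Pclaf and Esco2 had to be under 3 UMIs, as had the sum of the mitotic genes Ube2c, Cenpf, Ccnb1 and Cdc20. Cd74 and Cd3e, which mark immune cells, had to be at 0.

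In hairy skin, Krt79 is known from the cells that line the hair canal and the duct of the sebaceous gland, and that move outward from the follicle while the canal opens. Gata6 and Lrig1 are known from the same upper part of the follicle, the junctional zone and infundibulum. Cst6 (cystatin M/E) restrains the cathepsins and legumain of the outer epidermis, Defb6 is a beta-defensin, and Krt17 is a keratin of skin appendages and of stressed epidermis.

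The study asked how a diabetes-inducing diet alters the epidermal cells of the paw. It used 12 wild-type C57BL/6J mice that were 6 to 8 weeks old when the diet began and 16 to 18 weeks old at collection. For 10 weeks, 3 male and 3 female mice ate a regular diet (RD, 11% fat), and 3 male and 3 female mice ate a high-fat diet (HFD, 42% fat). Hairless skin of the hind paw was split with Dispase, the peeled epidermis was dissociated with TrypLE, and 1 droplet library was made per mouse. No allele or drug distinguished the groups, and all 12 mice are separate animals, so every p-value below measures the spread between mice.

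The libraries held 134449247 to 194673581 UMIs each. The Krt79 keratinocytes of a mouse summed to 1246653 to 2410706 UMIs, and their median depth per cell ranged over mice from 6690 to 12557 UMIs and from 1952 to 3474 genes. Every male table was written by Cell Ranger 6.1.0 and every female table by Cell Ranger 7.2.0, so sex and counting software cannot be told apart, and levels are not compared between the sexes as a result. Any pair of libraries shared 11 to 59 kept barcodes (median 27.5 over 66 pairs). Free RNA was gauged in 3454 Langerhans cells (at least 10 UMIs of Cd74 and at least 1 of Cd207), of which 58 (1.68%) held a Krt79 UMI and 15 held at least 3, at median depths of 2874 to 7781 UMIs per library. Over all libraries those Langerhans cells had Krt79 at 27.8, Defb6 at 13.7 and Cst6 at 196 CPM (Cst6 ranging from 41.05 to 900.2 CPM between libraries; CPM is a gene's UMIs scaled to a common total of all UMIs of the cells). These values include the 15 cells with at least 3 Krt79 UMIs. Krt79 ranged from 0.979 to 88.6 CPM between libraries, and was 3.24 CPM or less in each library without such a cell.

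Of the 125515 kept cells, 2755 had at least 3 Krt79 UMIs and 1960 of these also had Defb6 or Cst6. The limit on Lce1 genes left 1936, the limit on Krt9 left 1865, and the S-phase and mitotic limits left 1742 and then 1703 before the immune limit gave 1635. Between 66.2% and 91.1% of all Krt79 UMIs of a mouse lay in these cells. Their median Krt79 count per cell ranged over mice from 40 to 91 UMIs, far from the threshold. At the edge of the Krt79 rule, 72 cells had exactly 3 Krt79 UMIs and 126 cells that met all else had exactly 2. Pooled over mice, Krt17 stood at 2971 CPM inside that edge and 3439 outside it. At the edge of the Defb6 and Cst6 rule the 206 cells with exactly 1 such UMI held Krt17 at 797 and Klk7 at 6.26 CPM, and the 696 otherwise eligible cells with none held 723 and 2.38. The cells on either side of that second edge therefore resembled each other in these values more than they resembled the whole population, which is taken up below.

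The 4 genes that mark the population lie on separate chromosomes of the GRCm38 build. Krt79 is at chr15:101929332-101940324 on the minus strand, Defb6 at chr8:19225478-19228209 on the plus strand, Cst6 at chr19:5344705-5349574 on the minus strand and Krt17 at chr11:100256217-100261029 on the minus strand. The 250 bases before the RefSeq start (build GRCm38.p6) are shown for Krt79 and Defb6, 2 of these 4 genes, because the cells were chosen by Krt79 and its partner genes. Cst6 and Krt17 had no match in the table of windows and are named only. Both are written 5′ to 3′ on the strand of the gene, Krt79 from chr15:101940325-101940574 and Defb6 from chr8:19225228-19225477, and the capitals mark the GATA motif AGATAA.
Krt79: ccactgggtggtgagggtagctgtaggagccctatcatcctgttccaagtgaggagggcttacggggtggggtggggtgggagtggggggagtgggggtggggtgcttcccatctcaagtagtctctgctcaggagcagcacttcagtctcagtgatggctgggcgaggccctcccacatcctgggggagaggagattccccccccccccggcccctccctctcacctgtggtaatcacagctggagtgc
Defb6: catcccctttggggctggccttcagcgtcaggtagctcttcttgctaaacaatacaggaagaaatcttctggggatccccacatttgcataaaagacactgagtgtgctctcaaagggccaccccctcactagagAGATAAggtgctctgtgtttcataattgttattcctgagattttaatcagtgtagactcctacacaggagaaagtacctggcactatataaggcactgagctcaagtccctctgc
The Krt79 window was 64% G and C and the Defb6 window 46.8%. Each window was searched on both strands for AGATAA, for the AP-1 motif TGANTCA and for the TATA motif TATAAA. The match found was an AGATAA in the Defb6 window whose first base lies 115 bases before the start. The 250 bases before the start were searched the same way in all 32851 RefSeq windows, and the 50 bases after it were not. There AGATAA occurred in 9.99%, TGANTCA in 6.75% and TATAAA in 12.4%. Among the 279 windows of the genes at least 2-fold higher in Krt79 keratinocytes than in basal cells (217 of 305 such genes matched), the shares were 6.81%, 8.60% and 8.60%. A match is a run of letters and not a measured binding site.

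To describe the Krt79 keratinocytes, their UMIs were summed per mouse and scaled to CPM, and the same was done for 2 comparator sets of the same mice that obeyed the same exclusions but had no Krt79 UMI. The basal comparator (32940 cells) had Krt14 at 0.5% of UMIs or more and Krt10 under 0.5%, and the suprabasal comparator (42934 cells) the reverse. Krt14 is the keratin of the basal layer and Krt10 that of the layers above it. Since the rule chose the cells on this contrast, the values below are a description without a test, and each triplet gives the lowest, median and highest of the 12 mice. A gene that entered only because it was high in one set had to differ, so counts of genes are read as descriptions too. The counts over all genes, here and below, include the genes that define the sets compared.

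Krt79 itself stood at 5915, 6923 and 10444 CPM in the chosen cells and at 0 in both comparators by construction. Defb6 stood at 2097, 3906 and 8648 CPM, against 1.07, 3.63 and 5.59 CPM in basal and 0.911, 8.66 and 20.3 CPM in suprabasal cells. Cst6 stood at 22668, 33793 and 48585 CPM, against 19.98, 31.5 and 158 CPM in basal and 346, 622 and 972 CPM in suprabasal cells. All 3 were part of the rule and their separation follows from it. Krt17, which the rule did not use, stood at 4407, 6799 and 9326 CPM, with 171, 377 and 663 CPM in basal and 48.5, 89.4 and 188 CPM in suprabasal cells. The lowest mouse of the Krt79 keratinocytes was thus above the highest mouse of either comparator for Krt17.

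**Figure D1:**
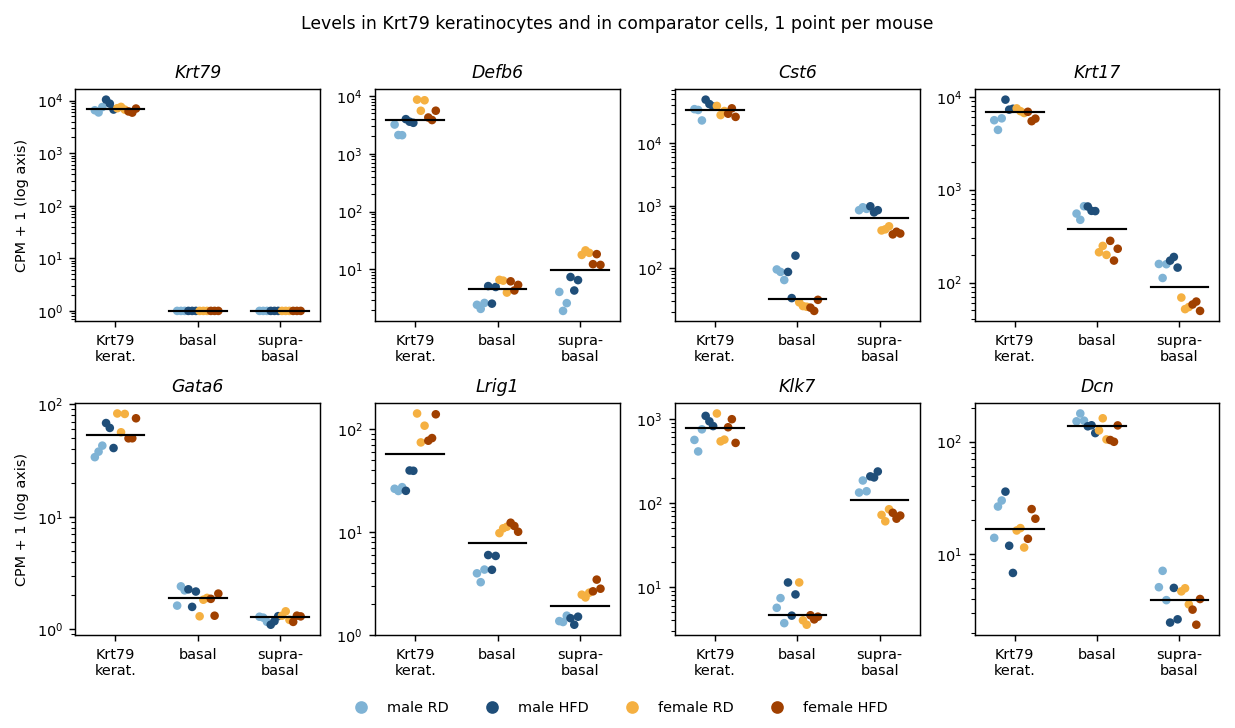
Levels of 8 genes as CPM + 1 on a log axis, with 1 point per mouse colored by group and a black line at the median of 12 mice, in Krt79 keratinocytes, basal comparator cells and suprabasal comparator cells. Krt17, Gata6, Lrig1 and Klk7 lie above both comparators in every mouse, whereas Dcn lies below the basal comparator.

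The study described Krt79 keratinocytes as migratory and gave Dcn, Lrig1 and Sema3e as further markers of that population, so these were examined in turn. Lrig1, a receptor regulator of junctional zone stem cells, was at 24.2, 56.3 and 142 CPM, against 2.25, 6.88 and 11.3 CPM in basal cells and 0.253, 0.923 and 2.45 CPM in suprabasal cells. Sema3e, a semaphorin ligand of plexin receptors, was low everywhere, at 1.93, 7.69 and 32.2 CPM against 0.646, 1.80 and 2.98 CPM in basal cells. Dcn, the proteoglycan decorin, went the other way, with 5.81, 15.6 and 35 CPM in Krt79 keratinocytes and 98.8, 137 and 177 CPM in basal cells. Against suprabasal cells (1.36, 2.95 and 6.11 CPM), the median log2 ratio of Dcn was 1.85. In the Krt79 cells that had neither Defb6 nor Cst6, Dcn stood at 28.1, 91.3 and 165 CPM, which overlaps basal cells; the study's markers did not include the partner genes that the rule required. Lrig1 and Sema3e were higher than in both comparators in 12 of 12 mice, and Dcn was lower than in basal cells in 12 of 12. Migration was not measured, and the cells are called Krt79 keratinocytes here.

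The transcription factor Gata6 stood at 32.9, 52.1 and 81.8 CPM in Krt79 keratinocytes, against medians of 0.882 CPM in basal and 0.281 CPM in suprabasal cells. Nebl, an actin-binding protein gene, stood at 70.2, 149.8 and 306 CPM against 1.29, 2.96 and 5.48 CPM in basal cells. Plet1, a surface protein gene of the junctional zone, differed less, with 407, 474 and 741 CPM against 77.4, 147 and 319 CPM. Of the bulge and secondary germ list, Cd34 stood at 0, 0 and 1.29 CPM and Lgr5 at 0, 1.84 and 10.5 CPM, while the 6 genes together summed to 942 to 1730.4 CPM, beside 969 to 1766 CPM in basal cells. Sox9, a factor of follicle and gland progenitors, was at 492, 617 and 915 CPM, and basal cells had 76.5, 126 and 171 CPM. Of a list of 12 infundibulum and junctional zone genes, 8 lay outside the rule and reached 50 CPM in either set, and 5 of the 8 were at least 2-fold higher than in basal cells in 12 of 12 mice (Krt17, Lrig1, Gata6, Klk10 and Nebl). Over all 3203 genes that reached 50 CPM in either set, 305 (9.52%) were higher and 99 (3.09%) lower by that measure. The median log2 ratio of the 8 genes was 3.34, beside -0.04 for all genes. Against suprabasal cells, 7 of the 8 were at least 2-fold higher in 12 of 12 mice, with Fst and Sostdc1 joining the 5, where 136 of 2935 genes (4.63%) were higher and 38 (1.29%) lower.

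The paw carries sweat glands as its own appendage, so 11 genes of the sweat gland and duct were read beside the follicle list. Their summed level was 180.3, 249 and 389.8 CPM in Krt79 keratinocytes, beside 25.2, 28.3 and 34.7 CPM in basal and 55.0, 80.6 and 119.6 CPM in suprabasal cells. The 11 sebaceous gland genes summed to 285, 729 and 2363 CPM, beside 110.04, 145 and 184 CPM in basal and 155, 235 and 359 CPM in suprabasal cells. Foxc1, a transcription factor required for sweat gland secretion, was the 1 gene of the sweat gland and duct list that reached 50 CPM in Krt79 keratinocytes. It stood at 98, 153 and 267 CPM against 2.59, 3.74 and 4.61 CPM in basal and 0.550, 1.04 and 2.28 CPM in suprabasal cells. Krt77, a keratin of the sweat duct, was at 14.2, 38.0 and 79.5 CPM against 0.113, 0.372 and 0.638 CPM in basal cells. The list of 6 inner root sheath and hair shaft genes summed to 10.7, 27.8 and 84.4 CPM, with none at 50 CPM. The place of the cells in the tissue was not measured.

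Markers of immune, pigment, Merkel, endothelial and Schwann cells were low or at 0. The summed level over mice was 0.671 to 6.1 CPM for 4 Langerhans genes, 0 to 14 CPM for 4 T cell genes, 0 to 2.14 CPM for 4 melanocyte genes, 0 to 18.1 CPM for 3 Merkel cell genes, 0.644 to 24.7 CPM for 3 endothelial genes and 0 to 2.81 CPM for 3 Schwann cell genes. The rule itself removed cells with Cd74 or Cd3e. The 5 fibroblast genes, Dcn among them, summed to 7.88 to 35.7 CPM, below the 101 to 179 CPM of basal cells.

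Outside the genes of the rule, which are left out of the rankings, those with the highest ratios against basal cells included a protease, a cornified envelope precursor and a lipid elongase. Klk7, a kallikrein protease that cuts the desmosomes of the outermost layer, had the highest ratio among genes outside the rule, with 408, 770.3 and 1156 CPM against 2.55, 3.58 and 10.3 CPM, a median log2 ratio of 6.97 (range over mice 5.80 to 7.91). Sprr1a, a precursor of the cornified envelope, followed with 865, 1688 and 2491 CPM against 3.88, 11.9 and 18.4 CPM. Sdr16c6, of the short-chain dehydrogenase family, came next with 133, 197 and 359.6 CPM against 0.814, 1.12 and 1.98 CPM. None of these ranges overlapped those of the basal cells.

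Stra6, the receptor that takes up retinol, stood at 55.2, 84.4 and 145 CPM against 4.22, 5.69 and 7.53 CPM in basal and 0.176, 0.455 and 0.905 CPM in suprabasal cells. Elovl4, the elongase of very long chain fatty acids, stood at 271, 505 and 1047 CPM against 7.50, 8.45 and 13.7 CPM in basal cells. Suprabasal cells had more Elovl4 at the median (597, 687 and 811 CPM), so Elovl4 separated the cells from one comparator and not from the other. Further leaders against basal cells were Krt23, Ly6g6c, Teddm3, Klk6, Psapl1, Akr1c18, Spink12, Slc46a2, Gsdma, Car6, Skint3, Atp6v1c2, Rptn, Cnfn and Cdsn, with median log2 ratios from 5.33 to 6.43.

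Against suprabasal cells the leaders included Spink12, Foxc1, Krt17, Csrp2, Stra6, Tm4sf1, Klk6, Alcam, Pdzrn3, Gpx2, Atp1b1, Far2, Gata6, Atp12a, Cidea, Klk10, Lbh, Cracr2b and Krt23, with median log2 ratios from 6.68 down to 4.98. Spink12, a Kazal-type protease inhibitor gene, stood at 35.7, 152 and 409.9 CPM against 0, 0.165 and 1.01 CPM. Far2, which makes the fatty alcohols of wax esters, ranged from 0.713 to 155 CPM over mice. Spink12, Klk6 and Krt23 were among the 20 leaders in both comparisons, and both comparisons share the same Krt79 keratinocytes.

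**Figure D2:**
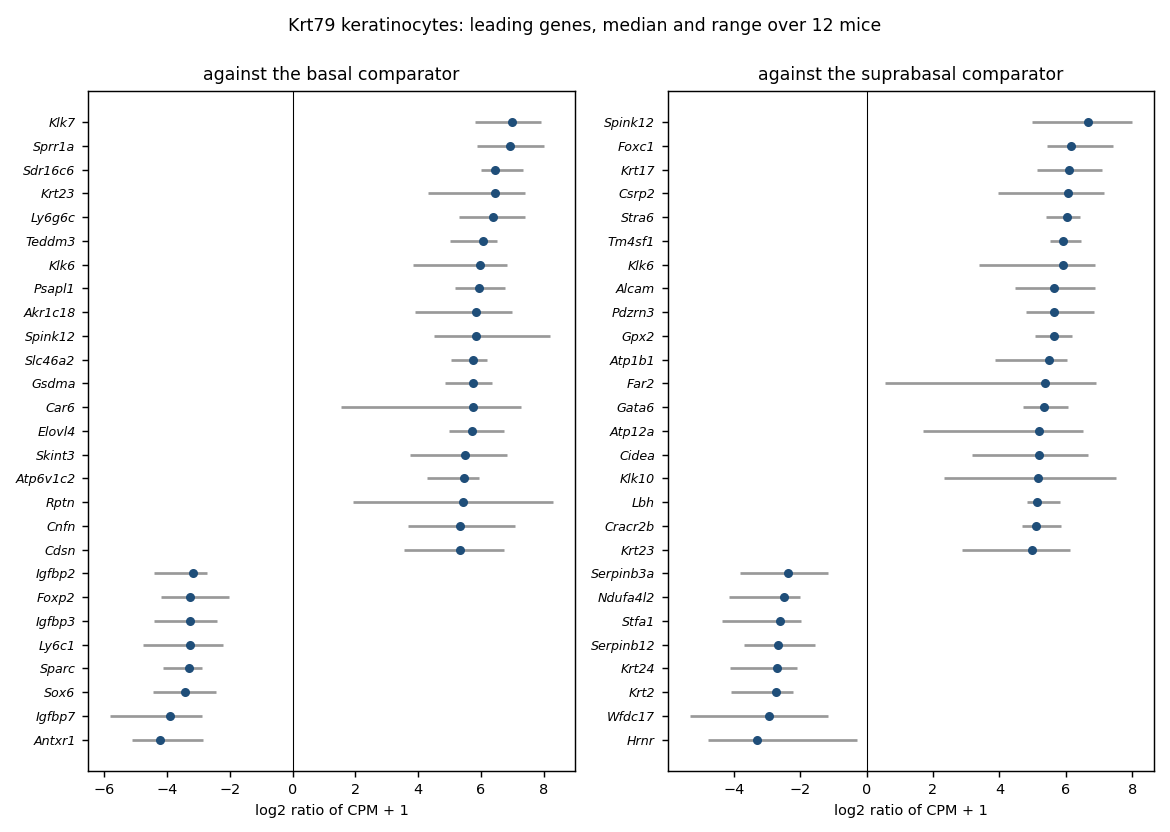
Named genes outside the rule among the 20 with the highest and the 8 with the lowest median log2 ratio of CPM + 1 in Krt79 keratinocytes against each comparator, with a point at the median and a line over the range of 12 mice. Klk7 heads the left panel with a median of 6.97 and Spink12 the right panel with 6.68. Every line stays on one side of 0 because genes were taken only if all 12 mice had the same sign.

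The 8 genes lowest against basal cells included matrix proteins and binders of growth factors. Antxr1, a collagen-binding receptor, stood at 0.653, 3.01 and 7.11 CPM against 37.3, 50.6 and 85.1 CPM in basal cells. Sparc, a matrix glycoprotein, stood at 14.4, 20.1 and 49.6 CPM against 176, 241 and 399 CPM, and Igfbp2, which binds insulin-like growth factors, at 38.5, 86.9 and 113 CPM against 684, 779.9 and 1027 CPM. Igfbp7, Sox6, Ly6c1, Igfbp3 and Foxp2 completed the 8. Of 10 basal layer genes outside the rule that reached 50 CPM, 9 were at least 2-fold lower in 12 of 12 mice, with a median log2 ratio of -2.39. They include Krt5, the hemidesmosome genes Col17a1, Itga6, Itgb4 and Dst, the integrin Itgb1, the laminin chain Lamb3, and the cadherin Cdh3. Over all genes, 99 of 3203 (3.09%) were lower by that measure. The basal comparator was chosen by high Krt14 and low Krt10, whereas 538 of the 1635 Krt79 keratinocytes were Krt10-high. The lower basal layer genes cannot be separated from that choice. Col17a1, which anchors basal cells to the basement membrane, stood at 83.5, 144 and 198 CPM against 927, 1228 and 1375 CPM.

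Proteases and their inhibitors can be read side by side. Among 9 protease genes of the barrier that reached 50 CPM, 6 were at least 2-fold higher than in basal cells in 12 of 12 mice (Klk5, Klk6, Klk7, Klk10, St14 and Ctsd), and none was lower. Over all 3203 genes, 305 (9.52%) were higher and 99 (3.09%) lower by that measure. Klk10 stood at 80.5, 411 and 908 CPM against 12.6, 24.7 and 35.9 CPM. Spink5, which encodes the kallikrein inhibitor LEKTI, stood at 579, 789.8 and 1214 CPM against 18.6, 39.7 and 70.2 CPM, and Cstb, a cytosolic cystatin, at 971, 1904 and 2908 CPM against 192, 375 and 629 CPM. Both inhibitors were in the 3 of 9 inhibitor genes outside the rule that were at least 2-fold higher, with Serpinb12 as the other. Against suprabasal cells, 4 of 10 protease genes (Klk6, Klk7, Klk10 and Ctsl) were at least 2-fold higher in 12 of 12 mice. Of 11 inhibitor genes outside the rule, Timp3 was at least 2-fold higher and Stfa1, Serpinb3a and Serpinb12 were at least 2-fold lower. Over all 2935 genes of that comparison, 136 (4.63%) were higher and 38 (1.29%) lower. Ctsl, a cathepsin that Cst6 restrains, stood at 256, 431 and 1563 CPM against 29.7, 35.8 and 41 CPM in suprabasal cells.

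All 4 antimicrobial genes outside the rule that reached 50 CPM were at least 2-fold higher than in basal cells in 12 of 12 mice (Defb1, Slpi, Wfdc12 and Wfdc18; median log2 ratio 2.83). By that measure 305 of all 3203 genes (9.52%) were higher. Genes entered at 50 CPM in either set, so any that did so only through Krt79 keratinocytes had to be higher on average. Defb1, a beta-defensin, stood at 162, 210.0 and 427 CPM against 29.7, 44.3 and 70.0 CPM in basal and 23.4, 44.0 and 61.5 CPM in suprabasal cells. Wfdc12, in contrast, was at 7.30, 52.0 and 182 CPM, with 90.0, 182 and 473 CPM in suprabasal cells. Krt6a, a keratin of wounds and of the follicle's companion layer, stood at 1336, 1692 and 2274 CPM against 143, 325 and 465 CPM in basal cells. Krt6a, Krt17, Sprr1a and Sprr1b were the 4 of 7 wound and stress genes at least 2-fold higher. The 12 immediate early genes, which respond to dissociation, had a median log2 ratio of 0.06 with none at least 2-fold apart in 12 of 12 mice. None of 10 interferon-stimulated genes reached 50 CPM.

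Of 6 nerve-directed and chemokine ligand genes at 50 CPM in either set, none was at least 2-fold higher than in basal cells and 1 was lower. That gene was Sema3c, at 9.15, 25.1 and 38.6 CPM against 118, 145 and 173 CPM. Of 7 hedgehog, Wnt and BMP genes, Wnt10a was at least 2-fold lower, with 5.88, 16.0 and 22.3 CPM against 79.7, 106 and 148 CPM. Both Sema3c and Wnt10a were thus lower in every Krt79 sum than in any basal sum. Among all 3203 genes, 99 (3.09%) were at least 2-fold lower in 12 of 12 mice.

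The keratins of both layers were read in turn. Krt14 stood at 6487, 8236 and 10252 CPM in them, between 12651, 15293 and 20255 CPM in basal and 240.3, 398 and 498 CPM in suprabasal cells. Krt10 stood at 3713, 6635 and 10920.5 CPM, between 596, 697 and 888 CPM in basal and 22139, 28129 and 39420.2 CPM in suprabasal cells. Cut at 0.5% of UMIs, 870 cells were high in Krt14 and low in Krt10, 325 were high in Krt10 and low in Krt14, 213 were high in both and 227 in neither. These are ranges and not types, since 19.1% to 33.8% of a mouse's Krt79 keratinocytes lay within 2-fold of the Krt10 cut and 27.8% to 48.8% within 2-fold of the Krt14 cut.

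Between the Krt10-high and the Krt14-high Krt79 keratinocytes, 24 of 3000 genes (0.800%) were at least 2-fold higher and 16 (0.533%) at least 2-fold lower in 12 of 12 mice. Krt2, a keratin of the upper suprabasal layers, had the highest ratio, with 45.0, 138 and 503 CPM in the Krt14-high and 2973, 5907 and 8849.9 CPM in the Krt10-high cells. Krt2 in the Krt10-high cells still lay below the 12581 to 17110.2 CPM of the suprabasal comparator. Krt24, Krt1, Serpinb12, Rptn, Cstdc5, Wfdc17, Agpat4, Hal and Dkkl1 were the other leaders. On the Krt14-high side stood Runx3, a transcription factor, at 22.0, 50.05 and 157 CPM against 0, 0.808 and 20.9 CPM, followed by Vamp5, Tm4sf1, Gsta4, Cald1, Cryba4, Spink12, Dsc2, Krt15 and Ftl1. None of the 8 infundibulum and junctional zone genes was at least 2-fold apart in 12 of 12 mice, and Krt17 stood at 3216, 5672 and 6877 CPM in the Krt14-high and 3212, 7062 and 9167 CPM in the Krt10-high cells. The ranges for Krt17 overlapped, although the Krt10-high median lay above the highest Krt14-high value.

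The cells also differed by how much Defb6 and Cst6 they held. By their Defb6 and Cst6 UMIs together, 206 cells held 1, 85 held 2, 71 held 3 or 4 and 107 held 5 to 9. Another 118 cells held 10 to under 20, 160 held 20 to under 50 and 137 held 50 to under 100. The rest were 139 cells with 100 to under 200 and 612 with 200 or more. These ranges widen with the count, and they show no gap at 10. A boundary at 10 UMIs, chosen after these values were seen, left 1166 cells above it (63 to 123 per mouse) and 469 below it (25 to 62 per mouse). The lower cells were 20% to 38.8% of a mouse's Krt79 keratinocytes. Depth did not separate them, with medians per mouse of 6580 to 13573 UMIs above and 6814 to 12143 UMIs below the boundary. The 696 cells with Krt79 but neither partner were set beside them. The median Krt79 count per cell was 76.8 UMIs above the boundary, 23 below it and 11.8 in cells with neither, as medians over mice.

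Above the boundary, Klk7 stood at 585, 1037 and 1485 CPM, below it at 0, 25.2 and 201 CPM, and with neither partner at 0, 2.20 and 6.1 CPM. Krt17 stood at 5960.1, 8299.8 and 11825 CPM above, 628, 1367 and 2121 CPM below and 251, 733 and 1601 CPM with neither. Gata6 stood at 45.2, 69.1 and 105 CPM above, 0, 5.10 and 19.0 CPM below and 0, 0.586 and 3.67 CPM with neither. Klk7, Krt17 and Gata6 were thus far apart across the boundary in every mouse, and the lower cells approached the cells with neither partner. Klk6, Rptn, Atp12a, Krt77, Car6, Tprg, Slc46a2, Ivl, Gsdma, Teddm3, Chil1, Klk10 and Defb1 were among the other leaders above the boundary. In all, 42 of 3132 genes (1.34%) were at least 2-fold higher and 12 (0.383%) at least 2-fold lower above the boundary in 12 of 12 mice. The genes that set the boundary were not left out of these counts.

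Of 9 sebaceous gland genes that reached 50 CPM, Far2 and Soat1 were at least 2-fold lower above the boundary in 12 of 12 mice and none was higher, with a median log2 ratio of -2.53 beside -0.14 for all genes. Genes of this list at 50 CPM numbered 3 above and 9 below the boundary, so most entered through the lower cells. Scd1, the stearoyl-CoA desaturase, stood at 43.3, 57.4 and 338 CPM above the boundary, 94.9, 583 and 4596 CPM below it and 125, 903 and 3581 CPM with neither partner, while basal cells had 30.0, 43.9 and 59.0 CPM. Far2 stood at 0, 0.356 and 68.3 CPM above, 3.16, 144 and 377 CPM below and 14.1, 96.0 and 265 CPM with neither. Soat1, which esterifies cholesterol, stood at 0, 0 and 29.6 CPM above, 2.65, 35.7 and 270.2 CPM below and 4.03, 111 and 431 CPM with neither. Scd1, Far2 and Soat1 varied over mice by more than 10-fold in the lower cells, so all 12 mice shared the direction for these 3 genes but not the size. The sum of the sebaceous list did not share it, since male HFD replicate 1 had 286 CPM above and 282 CPM below the boundary. Runx3 stood at 1.81, 6.36 and 13.5 CPM above and 27.0, 103 and 215 CPM below the boundary. Timp3, an inhibitor of matrix metalloproteinases, stood at 85.4, 157 and 317 CPM above and 253, 1225 and 2408 CPM below. Ccnd1, cyclin D1, stood at 96.7, 159.8 and 355 CPM above and 571, 1149.9 and 1597 CPM below, and Stmn2, Gsta4, Tm4sf1, Ctnnd2 and Kitl were further leaders of the lower cells.

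**Figure D3:**
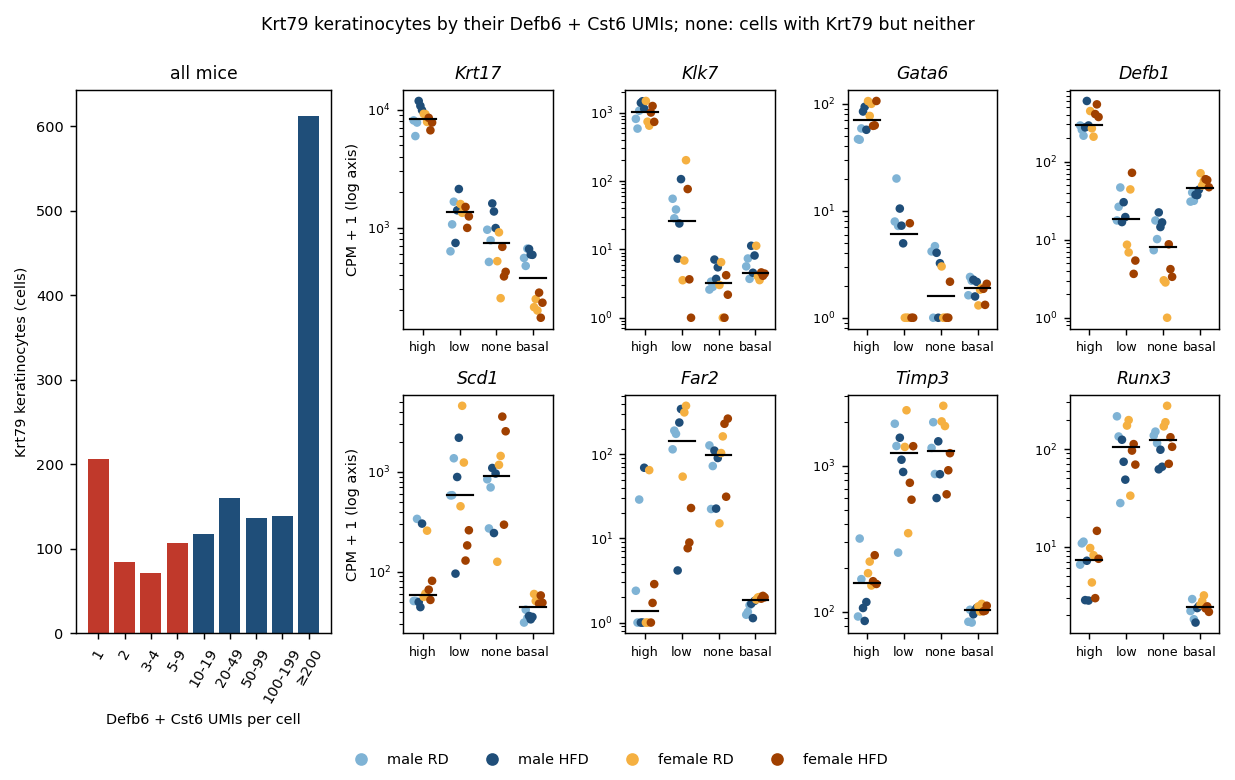
Left, the number of Krt79 keratinocytes by their summed Defb6 and Cst6 UMIs, with the 469 cells under 10 UMIs in red. Right, 8 genes as CPM + 1 on a log axis, 1 point per mouse and a line at the median, in cells at or above 10 UMIs (high), at 1 to 9 UMIs (low), with Krt79 but neither partner (none) and in basal comparator cells; the median of Klk7 is 1037 CPM in high and 25.2 CPM in low cells, and that of Scd1 57.4 and 583 CPM.

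When the lower cells were compared with the cells that had neither partner, 2 of 3084 genes (0.0649%) were at least 2-fold higher, and 0 lower, in 12 of 12 mice. Cst6, which is 0 in cells with neither partner by construction, is among the 2. Summed UMIs per mouse were 278623 to 756632 in the lower cells, 327891 to 852814 with neither partner and 11848972 to 34378017 in basal cells. Counts of genes from these comparisons were therefore not taken at equal depth. Against basal cells, the lower cells had 154 of 3174 genes (4.85%) at least 2-fold higher and 44 (1.39%) at least 2-fold lower. Among 9 sebaceous gland genes that reached 50 CPM in that comparison, Scd1, Mgst1, Far2 and Cidea were at least 2-fold higher in 12 of 12 mice (median log2 ratio 4.02, beside 0.06 for all genes). In the lower cells 9 genes of the list reached 50 CPM and in basal cells 1. Most therefore entered through the lower cells and had to be higher there on average. The 11 sebaceous gland genes summed to 246 to 984 CPM above the boundary, 282 to 7749.9 CPM below it, 567 to 7969 CPM with neither partner and 110.0 to 184 CPM in basal cells. The 9 infundibulum and junctional zone genes outside the rule, of which Krt17 supplied most, summed to 7372 to 13040.2 CPM above and 1196 to 2668 CPM below. By the boundary, Cst6 in the lower cells was held to 140.4, 194 and 289.9 CPM, beside 41.05 to 900.2 CPM in the Langerhans cells of single libraries and 19.98 to 158 CPM in basal cells.

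**Figure D4:**
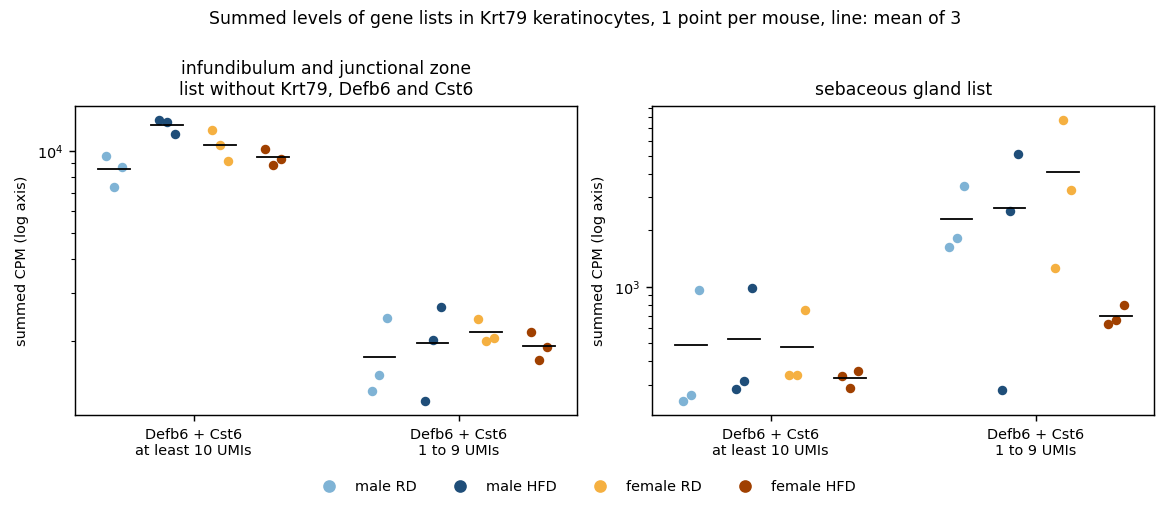
Summed CPM on a log axis of the infundibulum and junctional zone list without the rule genes Krt79, Defb6 and Cst6 and of the sebaceous gland list in Krt79 keratinocytes with at least 10 and with 1 to 9 Defb6 and Cst6 UMIs, 1 point per mouse by group and a line at the mean of 3 mice. The sebaceous sums of the lower cells spread from 282 to 7749.9 CPM, and the 3 female HFD mice lie at 629.9, 662 and 801 CPM.

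The share of Krt79 keratinocytes did not pass a test between diets. In RD males they made up 1.26%, 1.10% and 1.32% of kept cells, and in HFD males 1.58%, 1.2% and 1.87%. In RD females they made up 1.51%, 0.965% and 1.25%, and in HFD females 1.28%, 1.2% and 1.42%. The groups overlapped in both sexes. The mean was 1.23% ± 0.114 (SD, n = 3) in RD and 1.55% ± 0.337 in HFD males, which was 0.323 percentage points higher (exact permutation test, two-sided, p = 0.3, where 3 against 3 mice cannot go below 0.1). In females it was 1.24% ± 0.275 in RD and 1.30% ± 0.111 in HFD mice, a difference of 0.0574 points (exact permutation p = 0.8). With labels exchanged within each sex, the mean difference of 0.190 points had an exact permutation p of 0.185, with 0.005 the smallest that design allows. The share of Krt79 keratinocytes that were Krt10-high was 33.6% ± 6.59 (SD, n = 6) under RD and 32.2% ± 5.89 under HFD, a difference of -1.34 points (exact permutation p = 0.625). The means were 39.1% under RD and 34.9% under HFD in males (n = 3 each) and 28.0% and 29.5% in females. The difference was -4.91 points with cells thinned to 5000 UMIs (exact permutation p = 0.2) and -4.26 points with at least 10 Defb6 and Cst6 UMIs (exact permutation p = 0.36), and -3.07 to 0.447 points when 1 mouse was left out. With thinning the sexes went opposite ways. The male means were 44.9% under RD and 31.3% under HFD, without overlap between mice, and the female means were 29.3% and 33.2%, with overlap. This share was not tested within 1 sex.

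Diet was then compared gene by gene in the UMIs summed over the Krt79 keratinocytes of each mouse, with edgeR's quasi-likelihood test and Benjamini-Hochberg adjustment over all genes tested at a threshold of 0.05. In males, 4 of 7982 genes (0.0501%) passed, all higher under HFD. Defb4 (chr8:19198706-19201545), a beta-defensin, was at 1.85, 1.34 and 0.644 CPM in RD and 20.7, 10.1 and 13.3 CPM in HFD males, which came from 4, 2 and 1 UMIs and from 29, 13 and 32 UMIs. The fitted log2 change of Defb4 was 3.42 (SE 0.48, edgeR adjusted p = 0.0492), and it rests on 7 UMIs in the RD mice. In females, Defb4 was at 29.3, 7.22 and 2.61 CPM under RD and 9.65, 17.4 and 11.8 CPM under HFD, so the female groups overlapped. Cd200 (chr16:45382135-45409053), a surface ligand that restrains myeloid cells, was at 13.0, 10.1 and 12.2 CPM in RD and 33.5, 27.2 and 34.8 CPM in HFD males, a log2 change of 1.48 (SE 0.21, edgeR adjusted p = 0.0492). Rnase2b (chr14:51162260-51163018), a ribonuclease of the eosinophil-associated family whose close relatives could share reads, was at 15.3, 5.37 and 7.08 CPM in RD and 40.0, 34.2 and 41.9 CPM in HFD males (log2 change 2.03, SE 0.30, edgeR adjusted p = 0.0492). Fbxo32 (chr15:58175879-58214932), a ubiquitin ligase gene of muscle wasting, was at 30.6, 25.5 and 35.4 CPM in RD and 53.5, 69.9 and 68.0 CPM in HFD males (log2 change 1.11, SE 0.17, edgeR adjusted p = 0.0492). The male groups did not overlap for any of the 4, as was the case for 890 of the 7982 genes (11.2%). The next gene, Nppb, had a log2 difference of 2.05 and an edgeR adjusted p of 0.142. The male count was 0 with the Krt79 limit at 5 UMIs, with mitochondrial UMIs up to 10% or with median-of-ratios scaling, and 3, 0 and 0 without RD replicates 1, 2 and 3 and 1, 0 and 2 without HFD replicates 1, 2 and 3.

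In females, 3 of 9076 genes (0.0331%) passed, 1 higher (0.0110%) and 2 lower (0.0220%) under HFD. Sprr2e (chr3:92352143-92353449), a cornified envelope precursor of a gene family with near-identical copies, was at 14.1, 12.8 and 11.1 CPM in RD and 0, 0 and 1.31 CPM in HFD females, from 25, 16 and 17 UMIs and from 0, 0 and 2 UMIs. Its fitted log2 change of -4.81 (SE 0.64, edgeR adjusted p = 0.0427) rests on those 2 UMIs. In males Sprr2e was at 0.644 CPM in 1 RD mouse and 0 in the other 5 mice. Tardbp (chr4:148612382-148627019), the RNA-binding protein TDP-43, was at 37.8, 33.7 and 35.3 CPM in RD and 64.5, 74.1 and 73.4 CPM in HFD females (log2 change 0.97, SE 0.14, edgeR adjusted p = 0.0427). Cep170b (chr12:112720455-112746592), a centrosomal protein gene, was at 138, 132 and 122 CPM in RD and 73.7, 73.6 and 70.1 CPM in HFD females (log2 change -0.85, SE 0.12, edgeR adjusted p = 0.0427). For each of these the female groups did not overlap, as for 1391 of the 9076 genes (15.3%). Sdr16c6, among the leaders above, was at 195, 329 and 297 CPM in RD and 134, 133 and 140.2 CPM in HFD females and did not pass (log2 difference -1.02, edgeR adjusted p = 0.137). The female count was 0 with the Krt79 limit at 5 UMIs or with mitochondrial UMIs up to 10%, 13 without cells of over 2 times the median UMIs, 47, 0 and 8 without RD replicates 1, 2 and 3, and 0, 1 and 0 without HFD replicates 1, 2 and 3.

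**Figure D5:**
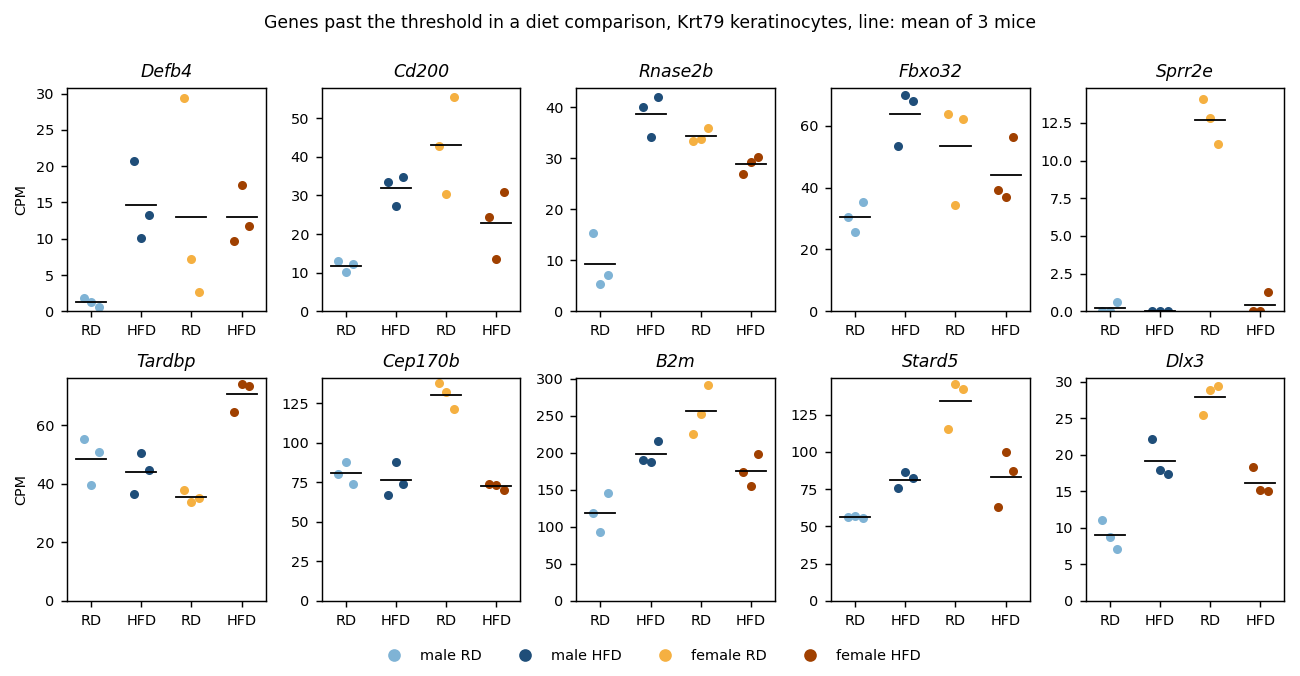
CPM in the Krt79 keratinocytes of each mouse for the 10 genes that passed in a comparison of HFD with RD within males, within females or between the sexes, with a line at the mean of 3 mice and the axis starting at 0. Defb4, Cd200, Rnase2b and Fbxo32 are higher in all 3 HFD males than in any RD male, and Sprr2e is at 1.31 CPM or less in the 3 HFD females.

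The difference between the sexes in the response to diet was tested itself, as the HFD minus RD change in males less that in females. It passed for 5 of 9308 genes (0.0537%), all with the larger value in males. These were Rnase2b, Cd200, B2m (chr2:122147686-122153083), the light chain of MHC class I, Stard5 (chr7:83631959-83653127), a sterol carrier gene, and Dlx3 (chr11:95120119-95125296), a homeobox factor of skin appendages. B2m was at 119, 93.3 and 146 CPM in RD and 189.8, 188 and 217 CPM in HFD males. In females B2m was at 226, 252 and 291 CPM under RD and 174, 155 and 198 CPM under HFD. The diets were thus ordered oppositely in the sexes for B2m, with no overlap in either, an order that the test which picked it favors. Within a single sex, 11.2% of genes did not overlap in males and 15.3% in females. The interaction for B2m was 1.34 on the log2 scale (SE 0.21, edgeR adjusted p = 0.0297). This count was 0 with the Krt79 limit at 5 UMIs or with mitochondrial UMIs up to 10%, 14 without male HFD replicate 1, 13 without female RD replicate 1, 4 without female RD replicate 2 and 0 to 2 without each of the other 9 mice.

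With both sexes averaged, 0 of 9308 genes passed by edgeR (0%) and 0 by DESeq2, and 541 had an unadjusted p under 0.05. The smallest p belonged to Rnase2b, Ttll7, Cep170b, Sult5a1 and Rad51b, with edgeR adjusted p from 0.308 to 0.542. Whether diet acted differently on Krt79 keratinocytes than on basal cells of the same mice was tested with the mouse as a block, and 0 of 13231 genes passed by edgeR (0%), 1 by DESeq2 and 583 at an unadjusted p under 0.05. Hes1, a target of Notch, had the smallest p there, with a difference of 0.44 (SE 0.09, edgeR adjusted p = 0.251). Adding a mouse's other cells as a reference therefore gave no call by edgeR.

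The genes that define the population did not pass in either sex. Krt79, Defb6 and Cst6 chose the cells under both diets, so their values within these cells depend on the rule and are read as descriptions. In RD males Krt17 was at 5601, 4407 and 5866 CPM and in HFD males at 9326, 7273 and 7436 CPM, a log2 difference of 0.66 (SE 0.15, edgeR adjusted p = 0.284). Of the 8 tested infundibulum and junctional zone genes outside the rule, 7 had values above 0 in males, 3 had an unadjusted p under 0.05 and 0 passed, with a median log2 difference of 0.35 beside 0.003 for all genes. Over all genes, 450 of 7982 had an unadjusted p under 0.05 in males. Of the basal layer list, 0 of 10 tested genes were above 0 in males (median -0.26) and 9 of 12 in females (median 0.17), with 0 passed in each. Without the cells of over 2 times the median UMIs these were 3 of 10 (median -0.05) and 10 of 11 (median 0.42), again with 0 passed. In males Krt79 was at 0.43, Defb6 at 0.62, Cst6 at 0.55, Klk7 at 0.78 and Gata6 at 0.62 on this log2 scale, with edgeR adjusted p from 0.364 to 0.791. Without the cells of over 2 times the median UMIs the value for Krt79 was 0.15 (edgeR adjusted p = 0.858). In females, 4 of the 9 tested genes of that list outside the rule were above 0 and the median was -0.16. Defb6 was at 8648, 5558 and 8438 CPM in RD and 4247, 3836 and 5567 CPM in HFD females, with a log2 difference of -0.74 (SE 0.16, edgeR adjusted p = 0.191). Of the 142 genes of all 27 lists tested in males, Defb4 was the 1 that passed, and 0 of 149 passed in females. Without the cells of over 2 times the median UMIs, 0 of 6 antimicrobial genes and 1 of 11 barrier protease genes passed in males, beside 4 of all 6619 genes. In females, 1 of 8 wound and stress genes then passed, beside 13 of all 7961 genes.

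The sebaceous gland genes were lower in HFD females by value, and again none passed. Far2 was at 11.8, 85.8 and 121 CPM in RD and 1.52, 2.25 and 7.86 CPM in HFD females, with a log2 difference of -4.29 (SE 0.79, edgeR adjusted p = 0.144). Scd1 was at 143, 1299 and 437 CPM in RD and 79.8, 79.2 and 134 CPM in HFD females, with a log2 difference of -2.70 (SE 0.58, edgeR adjusted p = 0.170). The female groups did not overlap for either gene, as for 15.3% of all genes tested in females, but the lowest RD mouse lay close to the highest HFD mouse. All 7 tested sebaceous genes were below 0, 6 had an unadjusted p under 0.05 (923 of all 9076 genes did), and the median was -1.39. Far2 and Scd1 did pass once the cells with over 2 times the median UMIs of their mouse were left out, at -3.59 (edgeR adjusted p = 0.00423) and -1.67 (edgeR adjusted p = 0.0483). In that setting 13 of all 7961 genes passed in females. Among the cells with at least 10 Defb6 and Cst6 UMIs the median of the 5 tested genes was -0.37 and 0 passed. The sum of the sebaceous list in the lower cells was 1253, 7749.9 and 3280.4 CPM in RD and 629.9, 662 and 801 CPM in HFD females. In the Krt79 cells with neither partner it was 567, 3253 and 2734 CPM in RD and 7969, 1035 and 5668 CPM in HFD females, so the order of the diets was not the same in those cells. In males the median of 9 sebaceous genes was 0.31, and it was -0.45 over 6 genes without the cells of over 2 times the median UMIs.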

How the data were processed

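The authors deposited, for each of 12 mice, raw UMI counts per gene and cell barcode, made with Cell Ranger on the GRCm38 (mm10) build; per the file headers, the version was 6.1.0 for males and 7.2.0 for females, and the submitters' notes name 7.2.0 and Seurat 5.0.0. Whether intronic reads were counted is not given in the sources used here. The cells were chosen, and gene lists and comparisons set, with earlier results of these data known. Summed UMIs per mouse were tested with edgeR 4.0.16 (TMM, filterByExpr, quasi-likelihood; R 4.3.3) against diet within each sex, and with a fit of 4 groups for the interaction and the average. Shares were compared by exact permutation (scipy 1.17.1). The alternatives were DESeq2 1.42.0, other scaling, filters, thresholds and depths, the replicate number as a block, and each mouse left out. Ratios used CPM + 1. Named genes were those of the rule, the study's markers and the lists, the 20 highest and 8 lowest ratios (10 each way between Krt10-high and Krt14-high cells) among genes outside the rule with a mean of at least 50 CPM and 1 sign in 12 of 12 mice, and in each diet comparison up to 10 genes past the threshold each way or, under 5, the 5 of smallest p. Genes shown for the boundary at 10 Defb6 and Cst6 UMIs were chosen after its values were seen. No doublet caller was run; 304 cells of over 2 times their mouse's median UMIs were left out as an alternative. Promoter windows are from RefSeq. On simulated data with 200 changed genes, the test found 46% of 2-fold and 91% of 4-fold changes in males (8060 genes tested; 13 of 150 calls were false), 56.1% and 91.4% in females (9127 genes; 10 of 155 false) and 22.6% and 75.7% for the interaction (9554 genes; 3 of 105 false). Some genes are not reported here.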

Additional observations from a re-analysis of the deposited data

Results flagged for a closer look

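For 5 genes the change with diet in Krt79 keratinocytes differed between males and females by a test of that difference, with edgeR's quasi-likelihood test and adjustment over 9308 genes. The male minus female values on the log2 scale were 2.29 for Rnase2b (SE 0.34, adjusted p = 0.0297), 1.34 for B2m (SE 0.21, adjusted p = 0.0297), 2.41 for Cd200 (SE 0.38, adjusted p = 0.0297), 1.27 for Stard5 (SE 0.22, adjusted p = 0.0461) and 1.86 for Dlx3 (SE 0.32, adjusted p = 0.0461). Rnase2b had a log2 change of 2.03 in males and a difference of -0.26 in females. B2m, Stard5 and Dlx3 passed in neither sex alone, with 0.78, 0.58 and 1.09 in males and -0.56, -0.70 and -0.78 in females. Cd200 passed in males at 1.48, and its value of -0.94 in females did not (adjusted p = 0.286).

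For Dlx3, RD males had 11.1, 8.73 and 7.08 CPM and HFD males 22.1, 17.9 and 17.4 CPM, while RD females had 25.4, 28.9 and 29.4 CPM and HFD females 18.3, 15.2 and 15.1 CPM. For Stard5, RD males had 56.5, 57.1 and 55.4 CPM and HFD males 75.6, 86.2 and 82.1 CPM, while RD females had 115, 145 and 142 CPM and HFD females 63.0, 99.96 and 87.1 CPM. In each of these 2 genes the diets were ordered oppositely in the sexes without overlap, an order that the test which picked them favors. Within a single sex, 890 of 7982 genes (11.2%) did not overlap in males and 1391 of 9076 (15.3%) in females. Sex cannot be told apart from the counting software here. The 5 values kept their sign under all 22 alternatives, and the call was kept under 11 of 22 for Rnase2b, 10 for B2m, 9 for Cd200, 7 for Stard5 and 4 for Dlx3.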

How the results depend on the processing

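Main counts of called genes were 4 (males), 3 (females), 5 (interaction), 0 (sexes averaged) and 0 (diet effect in Krt79 keratinocytes against that in basal cells). In that order they became 11, 13 and 22 by DESeq2, with 1 for the last, and 139, 220, 220, 112 and 63 with no filter on low counts. With mitochondrial UMIs up to 10%, or Krt79 at 5 UMIs or more, the first 3 counts were 0. Median-of-ratios scaling gave 0 in males and 3 for the interaction. Without cells of over 2 times the median UMIs there were 13 in females, 3 for the interaction and 3 for the diet effect against that in basal cells. At least 10 Defb6 and Cst6 UMIs, an alternative chosen after seeing the data, gave 1 in females and 0 for the interaction. In males, thinned sums gave 1 and 1 fit of 4 groups gave 1. Leaving out 1 mouse gave 0 to 3, 0 to 47, 0 to 14, 0 to 1 and 0 to 1. The cause of these shifts was not tested. Same-numbered mice of both diets had correlations of residuals from -0.027 to 0.143, and not every mouse correlated best with its own number. With 3 mice per group this check cannot exclude pairing, and the main tests did not pair mice by replicate number. As a replicate block the replicate numbers gave 0 in males, 6 in females, 6 for the interaction and 1 averaged.

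Leaving out 1 mouse, the share difference ranged from 0.162 to 0.498 points in males, -0.0818 to 0.193 in females, 0.110 to 0.278 in both, and -3.07 to 0.447 for Krt10-high cells. It reversed to -0.0818 without female RD replicate 2 and -0.00297 without female HFD replicate 3, and for Krt10-high cells to 0.447 without female HFD replicate 3. Within 1 sex the share tests could not go below 0.1 and so could not pass; over both sexes p ranged from 0.07 to 0.39, and from 0.195 to 0.89 for Krt10-high cells. None of the 12 called gene values changed sign under any alternative. In males the call was kept under 4 of 16 alternatives for Defb4, 3 of 17 for Cd200, 8 of 17 for Rnase2b and 4 of 17 for Fbxo32. In females it was kept under 8 of 15 for Sprr2e, 7 of 17 for Tardbp and 9 of 17 for Cep170b. With 97 to 183 cells a mouse, genes under about 1 CPM rest on 1 or 2 UMIs.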

Other observations

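Serpina3j, a serine protease inhibitor gene, was present or absent by mouse in Krt79 keratinocytes. It stood at 43.5, 57.7 and 34.8 CPM in RD males and 0, 84.7 and 103 CPM in HFD males, and at 0, 125 and 164 CPM in RD females and 0, 0 and 0.655 CPM in HFD females. The HFD minus RD change of Serpina3j in Krt79 keratinocytes less that in basal cells, averaged over the sexes, did not pass (log2 difference -5.17, SE 1.00, edgeR adjusted p = 0.251).

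The 696 cells with at least 3 Krt79 UMIs and neither Defb6 nor Cst6 had 427, 716 and 1051 CPM of Sox9 as the lowest, median and highest of 12 mice and 1003, 2173 and 3393 CPM of Krt6a, which overlap the 492, 617 and 915 CPM and the 1336, 1692 and 2274 CPM of the chosen cells. Stra6, the retinol receptor, stood at 88.4, 176 and 367 CPM in them, 78.9, 203 and 373 CPM in the chosen cells with 1 to 9 Defb6 and Cst6 UMIs and 27.8, 54.8 and 77.7 CPM in those with 10 or more.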
